A study of Sus scrofa with 6 samples.

Results

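Host genes that gave rise to both exonic and intronic circRNAs were selected from the deposited circRNA table as every gene name with at least 1 circRNA of each type. Of the 1861 host genes of the table, 659 had exonic and 1265 had intronic circRNAs, and 63 had both. The paper reports far more circRNAs than the table holds, nearly all of them exonic and from all chromosomes. These host counts therefore describe the table and not the testis. DLG1 and LEF1 were left out, so that 61 hosts are described here, with 265 exonic and 84 intronic circRNAs. Testes were taken from 3 Landrace boars aged 30 days (Piglet-D30) and 3 Landrace boars aged 210 days (Adult-D210), with 1 library per boar. All 6 boars are described without a treatment or genetic change. Total RNA was depleted of ribosomal RNA and digested with RNase R, an exonuclease that degrades linear RNA, before sequencing. The value counted for each circRNA was the number of back-splice reads, which span the junction that closes the circle.

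An exonic circRNA forms when the spliceosome joins the end of an exon to the start of an exon further upstream. An intronic circRNA, called ciRNA, is thought to remain from the lariat that splicing leaves behind, and in such circles the first base of the intron is retained. Both types therefore draw on different parts of the same primary transcript. Testis is known for an abundance of circRNAs, and its cell content changes from spermatogonia and somatic cells before puberty to all stages of spermatogenesis in the mature boar. In whole tissue, fewer cells of a type and less RNA per cell cannot be told apart.

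The table held 4350 circRNAs, and the libraries had between 12701 and 33091 back-splice reads each. The p-values below set differences between the stages against the spread between these boars. In the edgeR fits that spread was estimated in part from other rows of the same fit. All 265 exonic circRNAs of the 61 hosts were detected in Piglet-D30 replicate 1, as was every exonic circRNA of the table, whereas 18 of their 84 intronic circRNAs had a read there. Exonic circRNAs found in other libraries alone were thus not analysed here, and 60 of the 265 had reads in Piglet-D30 replicate 1 and in no other library. Exonic circRNAs came from chromosomes 7, 8, 12 and 13, and so did the 61 hosts, with 43 on chromosome 13, 8 on chromosome 7 and 5 on each of chromosomes 8 and 12. They made up 5 of the 13 exonic hosts on chromosome 12, 8 of 66 on chromosome 7, 43 of 434 on chromosome 13 and 5 of 146 on chromosome 8, beside 103, 92, 74 and 29 intronic hosts. Coordinates are on Sscrofa10.2 and counted from 1. Of the 16 hosts listed by Ensembl identifier, 12 had a symbol in the name table and are given by it.

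The exonic circRNAs carried almost all back-splice reads of these hosts. Over the 6 libraries 13407 reads were exonic and 172 were intronic, a share of 1.27%, compared with 5.22% intronic reads in the whole table. These shares cover unlike sets, since the intronic rows of the table were not limited to the 4 chromosomes of the exonic rows, on which 298 of the 1265 intronic hosts lay. Exonic reads per host ranged from 1 to 2127 with a median of 63, and the median was 31.5 in the 598 other hosts of exonic circRNAs. The median number of exonic circRNAs was 3 per host, against 2 in the other hosts. Member and other exonic circRNAs had the same median of 4 exons, and the median span on the genome was 6694 nt and 8950 nt. The 5 hosts with the most exonic reads, ZC3H14, QRICH1, FOXK2, DENND6A and FANCD2, held 56.9% of the exonic reads. Intronic reads were spread thinly, since 31 hosts had 1 intronic read, 15 had 2, 6 had 3 or 4, and 9 had 5 or more. As many intronic as exonic reads were counted in 3 hosts, and more in 2.

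Intronic reads of the 61 hosts were fewer in the adult testis by count and per mapped read. In Piglet-D30 replicates 1 to 3, 34, 45 and 40 intronic reads were counted, and in Adult-D210 replicates 1 to 3, 22, 15 and 16. All 3 piglet libraries exceeded all 3 adult libraries, also after scaling to the mapped reads of each library. Relative to the back-splice reads of each library the stages overlapped. Piglet-D30 replicate 1, with 34 of 33091, lay between Adult-D210 replicate 1 (22 of 23583) and replicate 3 (16 of 12701). Per mapped read the intronic level was 0.954 ± 0.0672 (SD, n = 3) RPM (reads per 1000000 mapped reads) in the piglets and 0.382 ± 0.0605 (SD, n = 3) in the adults, a ratio of 2.50. Over all intronic circRNAs of the table, the same ratio was 1.67, from 30.6 ± 8.07 to 18.4 ± 4.17 (SD, n = 3 each). The groups did not overlap there either. A host joined the 61 only by way of an exonic circle, and each such circle was seen in Piglet-D30 replicate 1. No such condition applied to the hosts of all intronic circRNAs, so the 2 ratios cover unlike sets. Whether this choice raised the ratio of the 61 hosts was not tested. No test was made of these sums or of the difference between the 2 ratios.

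Exonic reads did not separate the stages in this way. They came to 3569, 1906 and 1901 in the piglets and to 2837, 1692 and 1502 in the adults, with the highest count in Piglet-D30 replicate 1. The exonic level was 61.0 ± 29.9 RPM (SD, n = 3) in the piglets and 43.4 ± 13.5 (SD, n = 3) in the adults, and the groups overlapped. Intronic reads made up 0.944%, 2.31% and 2.06% of the hosts' reads in Piglet-D30 replicates 1 to 3, and 0.770%, 0.879% and 1.05% in the adults. The 95% Wilson intervals of these shares, which cover counting error only, ran from 0.676 to 1.32% in Piglet-D30 replicate 1, from 1.73 to 3.07% in replicate 2 and from 1.52 to 2.79% in replicate 3. In Adult-D210 they ran from 0.509 to 1.16%, from 0.533 to 1.44% and from 0.650 to 1.71%. The share thus averaged 1.77% ± 0.726 (SD, n = 3) in the piglets and 0.901% ± 0.144 (SD, n = 3) in the adults, and Piglet-D30 replicate 1 lay within the adult range. Without that library the difference between the group means changed from -0.870 to -1.28 percentage points.

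**Figure D1:**
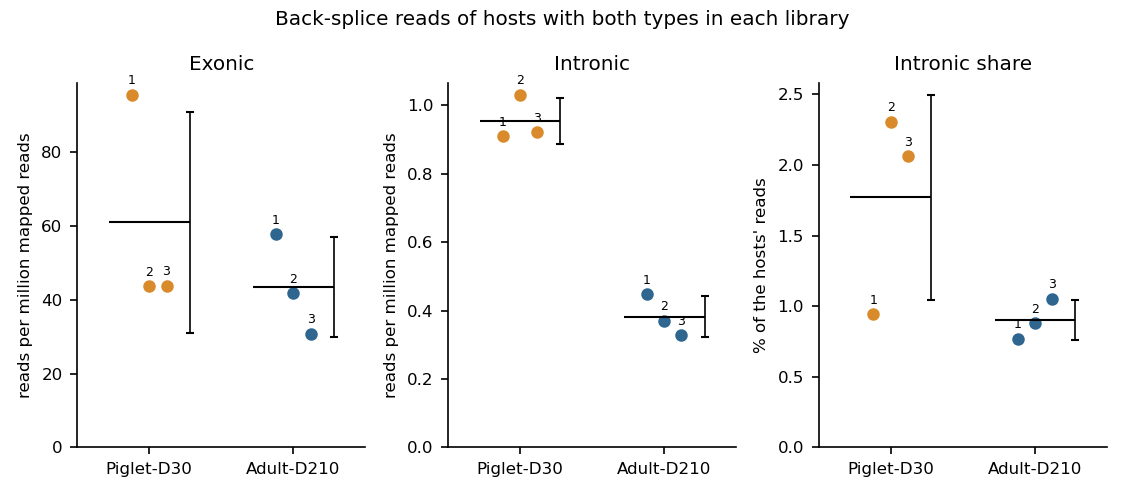
Exonic reads (left) and intronic reads (middle) of the 61 hosts in RPM, and the intronic share of their reads in percent (right). Points are libraries numbered by replicate, horizontal lines are group means and bars are SD (n = 3). The 3 piglet libraries lie above the 3 adult libraries in the middle panel, and the groups overlap in the other panels.

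Most hosts had intronic reads at a single stage, which the 31 hosts with 1 intronic read could not avoid. Intronic reads were found in Piglet-D30 alone in 35 hosts, in Adult-D210 alone in 15 and at both stages in 11, and in 47 hosts they came from 1 library. By circRNA, 71 of the 84 were found in 1 library, as were 1461 of the 1714 intronic circRNAs of other hosts. The counts by stage are therefore not read as particular to these hosts or as restriction to a stage. Exonic reads were found at both stages in 52 hosts and in Piglet-D30 alone in 9. Since every exonic circRNA of the table had a read in Piglet-D30 replicate 1, no host could have exonic reads in Adult-D210 alone. The intronic circRNAs themselves were not so limited, although their hosts were chosen by way of those exonic circRNAs. The exonic and intronic directions below were therefore counted under unlike conditions. Per mapped read, both types had a lower mean in the adult in 38 hosts, both had a higher mean in 4, the exonic mean was lower and the intronic mean higher in 15, and the reverse held in 4. When scaled to the back-splice reads of each library in place of mapped reads, these numbers became 28, 11, 10 and 12. With 1 intronic read in 31 hosts and 2 in 15, the intronic direction mostly rested on single reads.

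The position of the intronic circRNAs was read from the intron that the table gives for each. All 84 began at the first base of their intron, as did all 1798 intronic circRNAs of the table, and they differed in where they ended. In 26 (31.0%) the circle covered the whole intron, in 14 it stopped 1 to 10 nt before the intron's end, in 24 (28.6%) 11 to 50 nt before it, in 1 51 to 100 nt before it and in 19 more than 100 nt before it. Among the 1714 intronic circRNAs of other hosts, 22.6% covered the whole intron and 44.3% stopped 11 to 50 nt before its end. The shortest circle spanned 143 nt and the longest 54764 nt (median 486.5 nt), while the median intron was 653 nt long, against 412.5 nt and 497 nt in the other hosts. The longest, ciRNA1064 of ENSSSCG00000021656, rested on 1 read.

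The introns lay in 3 positions relative to the exonic circRNAs of the same host. In 18 cases (21.4%), from 16 hosts, the intron flanked an exonic circRNA, that is, it adjoined the exon at which the exonic circle closed. In 31 cases (36.9%), from 24 hosts, it flanked none but lay within the span of at least 1 exonic circRNA, and in 35 cases (41.7%), from 30 hosts, it lay outside all of them. The flanking introns formed 24 pairs with 23 exonic circRNAs, 12 upstream and 12 downstream of the exonic circle. In the 12 downstream pairs the first base of the intronic circle followed the last base of the exonic circle directly. In 10 of the 12 upstream pairs the intronic circle ended at the base before the exonic circle's first base, while in RBM5 it stopped 4 nt and in PPP2R5C 19067 nt short of it. The host PPP2R5C is named for this value, after its values were seen. Whole introns were covered by 8 of the 18 flanking, 7 of the 31 inside and 11 of the 35 outside circles.

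MBNL1, which encodes a regulator of alternative splicing and polyadenylation, had the most intronic reads (30) and the most intronic circRNAs (7). Of these, 6 shared their first base at chr13:100731326 and ended between 100731796 and 100731812, in an intron of 688 nt. Within this group of 28 reads, 27 belonged to 5 circRNAs that ended on 5 consecutive bases from 100731808 to 100731812, 201 to 205 nt before the end of the intron. All 6 lay inside circRNA11441, an exonic circle of 8 exons with 5 reads, all in Piglet-D30 replicate 1. The seventh, ciRNA1060, lay in the intron after the first exon of the exonic circles, spanned 1058 nt and had 2 reads in Piglet-D30 replicate 3.

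EIF4A2, which encodes an RNA helicase of translation initiation, followed with 20 intronic reads in 4 circRNAs. ciRNA298 covered a whole intron of 827 nt at chr13:133973502-133974328 and had 5, 4 and 0 reads in the piglets and 0, 2 and 0 in the adults. It lay outside all exonic circRNAs of the host. The other 3 adjoined exonic circles. ciRNA299 (277 nt) and ciRNA300 (245 nt), whole introns with 2 reads each in Piglet-D30 replicate 1, ended at the base before the exonic circles that start at 133974871 and 133976406. ciRNA301 began at 133977626, the base after the end of circRNA11670, so that this exonic circle of 7 exons had an intronic circle on each side.

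**Figure D2:**
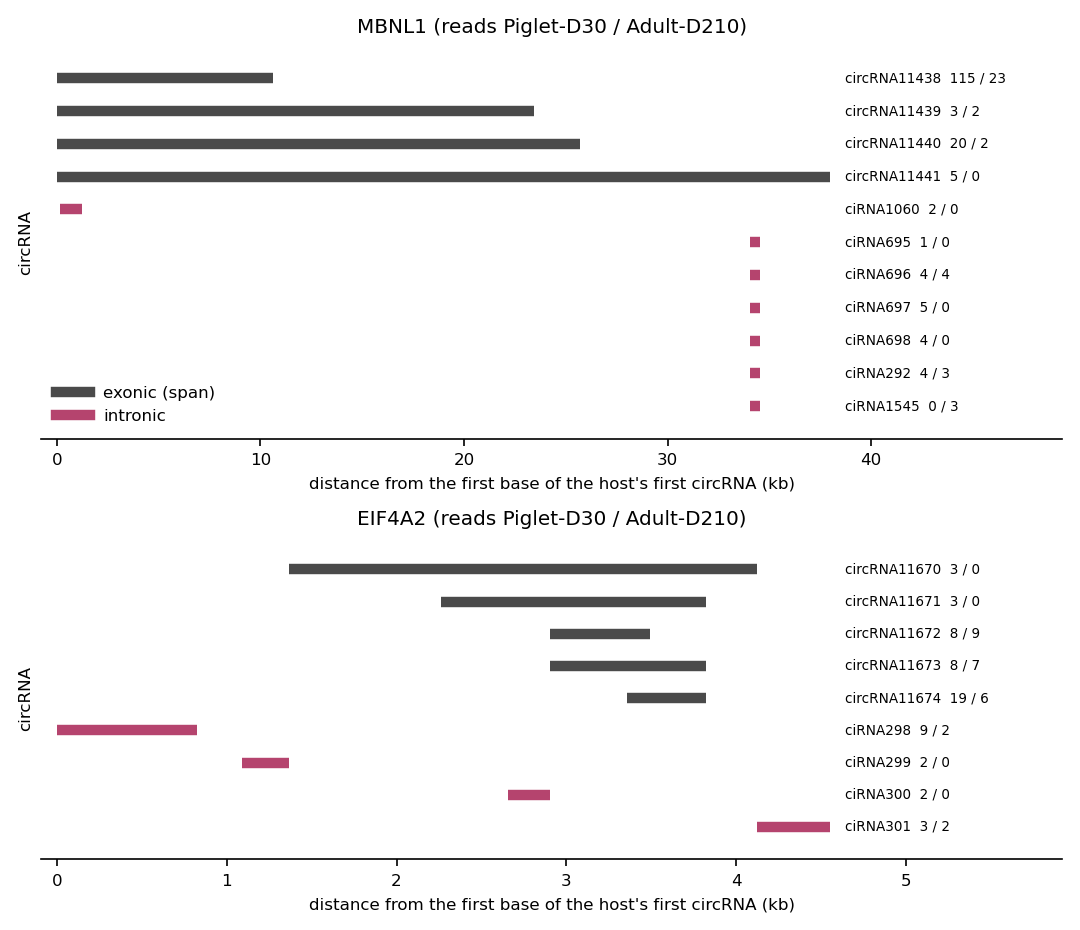
Spans of the exonic (grey) and intronic (red) circRNAs of MBNL1 (top) and EIF4A2 (bottom) by distance in kb from the first base of the host's first circRNA. Numbers at the right are reads summed over the 3 Piglet-D30 and the 3 Adult-D210 libraries. The 6 MBNL1 circles that share a first base stand above one another, and the EIF4A2 circles ciRNA299 and ciRNA301 adjoin both ends of circRNA11670.

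The stage change of the exonic reads was tested on the sum per host and type, with edgeR's quasi-likelihood test over all 560 sums of the table with at least 10 reads. Calls required a Benjamini-Hochberg adjusted p below 0.05 together with a change of 1 or more on the log2 scale, in either direction. Over the table, 97 of the 560 sums were called (17.3%), 36 higher in the adults (6.43%) and 61 lower (10.9%). Of the 61 hosts, 50 passed the filter with their exonic sum and 11 did not, and MBNL1 and EIF4A2 also with their intronic sum. Of these 52 sums 11 were called (21.2%), all exonic, 5 higher and 6 lower in the adult. The 560 sums of the table included 82 intronic sums, of which 3 were called, so that the shares of 17.3% and 21.2% cover unlike mixes of types. The median log2 fold change was -0.20 over the 50 exonic sums, -0.36 over the 428 exonic sums of other hosts and -0.31 over all 560 sums. With mapped reads as library size, the median of all sums moved to -1.06, and 10 sums of these hosts were called, 1 higher and 9 lower. Without Adult-D210 replicate 2, 7 were called. The intronic sums of MBNL1 (-0.42 ± 1.08 SE) and EIF4A2 (-1.32 ± 1.24 SE) were not called.

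Exonic circRNAs of ZC3H14, a zinc finger protein that binds polyadenosine RNA, were higher in the adult testis. The host had 316, 206 and 194 exonic reads in the piglets and 690, 395 and 326 in the adults, so that every adult count exceeded every piglet count. The log2 fold change was 1.52 ± 0.23 (SE, edgeR quasi-likelihood adjusted p = 3.08e-05). Scaled to mapped reads, SRPBM was 39.2 ± 14.9 (SD, n = 3) and 67.7 ± 24.6 (SD, n = 3) and the groups overlapped, and with mapped reads as library size the change was 0.80 and was not called. Of its 4 exonic circRNAs, circRNA1055 (3 exons, chr7:116973936-116994106) and circRNA1056 (6 exons, starting at the same base) were called on their own, with log2 fold changes of 1.39 ± 0.25 and 1.22 ± 0.27 (SE). Its intronic circRNA had 1 read, in Adult-D210 replicate 1.

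CCDC57, a coiled-coil protein of the centrosome, had the greatest increase among the called hosts. Its exonic reads were 14, 8 and 2 in the piglets and 78, 38 and 24 in the adults, and the groups did not overlap on either scale. The log2 fold change was 3.08 ± 0.50 (SE, adjusted p = 6.1e-05). It was 2.37 with mapped reads as library size and was still called. circRNA12274, of 2 exons, had 4, 0 and 0 reads in the piglets and 53, 11 and 12 in the adults, and circRNA12275, of 4 exons, had 10, 8 and 2 against 25, 27 and 12. Both were called on their own, with log2 fold changes of 4.35 ± 0.92 and 2.01 ± 0.59 (SE). Its intronic circRNA, which lay within circRNA12275, had 1 read, in Piglet-D30 replicate 3.

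FANCD2, a protein of the Fanconi anaemia pathway of DNA crosslink repair, had 20 exonic circRNAs, over which its reads were spread. The exonic reads were 166, 64 and 80 in the piglets and 291, 176 and 111 in the adults, with an overlap between Adult-D210 replicate 3 and Piglet-D30 replicate 1. The log2 fold change was 1.49 ± 0.28 (SE, adjusted p = 0.000272). Its leading circRNA11173 held 28.9% of the exonic reads, the lowest share among the 61 hosts, whose median was 66.7%. circRNA11173 and circRNA11170, which start at the same base, were called with log2 fold changes of 1.66 ± 0.40 and 1.68 ± 0.51 (SE). The call of circRNA11173 was lost in 4 of the 6 fits that left out a library and that of circRNA11170 in 6 of 6, and neither was called with mapped reads as library size (adjusted p = 0.211 and 0.254). Its intronic reads were 0, 1 and 0 in the piglets and 4, 1 and 0 in the adults, and the adult reads belonged to ciRNA1309, a whole intron of 299 nt.

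The other increases were in TDRD9 and CEP63. TDRD9, a helicase of the piRNA pathway that silences transposons in male germ cells, had 41, 12 and 23 exonic reads in the piglets and 55, 56 and 25 in the adults (log2 fold change 1.45 ± 0.41 SE, adjusted p = 0.0118). CEP63, a centrosomal protein of centriole duplication, had 44, 53 and 37 against 136, 41 and 72 (1.39 ± 0.36 SE, adjusted p = 0.00631). In both hosts the read counts of the groups overlapped. The call of CEP63 was lost without Adult-D210 replicate 1 (1.15, adjusted p = 0.0946) and that of TDRD9 without Adult-D210 replicate 2 (1.19, adjusted p = 0.0887). With mapped reads as library size, FANCD2 (0.72), TDRD9 (0.68) and CEP63 (0.72) remained above 0 and were not called. TDRD9 had 2 intronic reads, in Piglet-D30 replicate 1, and CEP63 had 1, in Piglet-D30 replicate 3.

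FLVCR2, a membrane transporter of the major facilitator superfamily, had the greatest decrease among the called hosts. Its exonic reads fell from 56, 32 and 47 in the piglets to 1, 4 and 5 in the adults. SRPBM was 7.37 ± 2.55 (SD, n = 3) and 0.493 ± 0.309 (SD, n = 3), and the log2 fold change was -3.14 ± 0.62 (SE, adjusted p = 0.000336). circRNA1005, of 4 exons, was called on its own with 33, 14 and 28 against 1, 0 and 3 reads. The single intronic read of FLVCR2 came from Piglet-D30 replicate 2.

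USP13, a deubiquitinating enzyme, had 141, 39 and 62 exonic reads in the piglets and 18, 9 and 5 in the adults. Its log2 fold change was -2.28 ± 0.46 (SE, adjusted p = 0.000458). TAMM41, a mitochondrial enzyme of cardiolipin synthesis, had 41, 25 and 21 against 9, 1 and 0 reads (-2.52 ± 0.71 SE, adjusted p = 0.0108). MBNL1 had 73, 28 and 42 against 9, 8 and 10 (-1.78 ± 0.48 SE, adjusted p = 0.00868). SETD5, a SET domain protein of chromatin regulation, had 46, 27 and 35 against 13, 6 and 3 (-1.72 ± 0.53 SE, adjusted p = 0.0197). ENSSSCG00000021656 had 27, 16 and 10 against 0, 3 and 3 (-2.47 ± 0.87 SE, adjusted p = 0.0437).

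In all 6 hosts called with a decrease, every piglet library exceeded every adult library, with or without scaling to mapped reads. The same held in ADCK1, DENND6A, IGF2BP2, RCOR1, SENP5 and STT3B, whose sums were not called. The calls were drawn from the same libraries, so that this separation is no further support for them. How often the exonic sums of other hosts separate the stages in this way was not counted. The separation is therefore not read as particular to these hosts. The calls of FLVCR2 and USP13 held with each library left out in turn. The call of ENSSSCG00000021656 was lost with any 1 library left out (adjusted p from 0.0517 to 0.207) and that of MBNL1 without Adult-D210 replicate 1 (-1.51, adjusted p = 0.0763). That of TAMM41 was lost without Adult-D210 replicate 2 (-2.16, adjusted p = 0.0819), and without other libraries its change reached -4.78. SETD5 was not called without Piglet-D30 replicate 3, Adult-D210 replicate 2 or Adult-D210 replicate 3 (adjusted p from 0.0732 to 0.0808). All 6 hosts called with a decrease had reads in Piglet-D30 replicate 1 by the choice of the exonic rows. Without that library, 12 of the 45 sums of the 61 hosts that could be tested were called, 6 in each direction. Of these 12 sums, 10 were among the 11 called with all libraries.

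**Figure D3:**
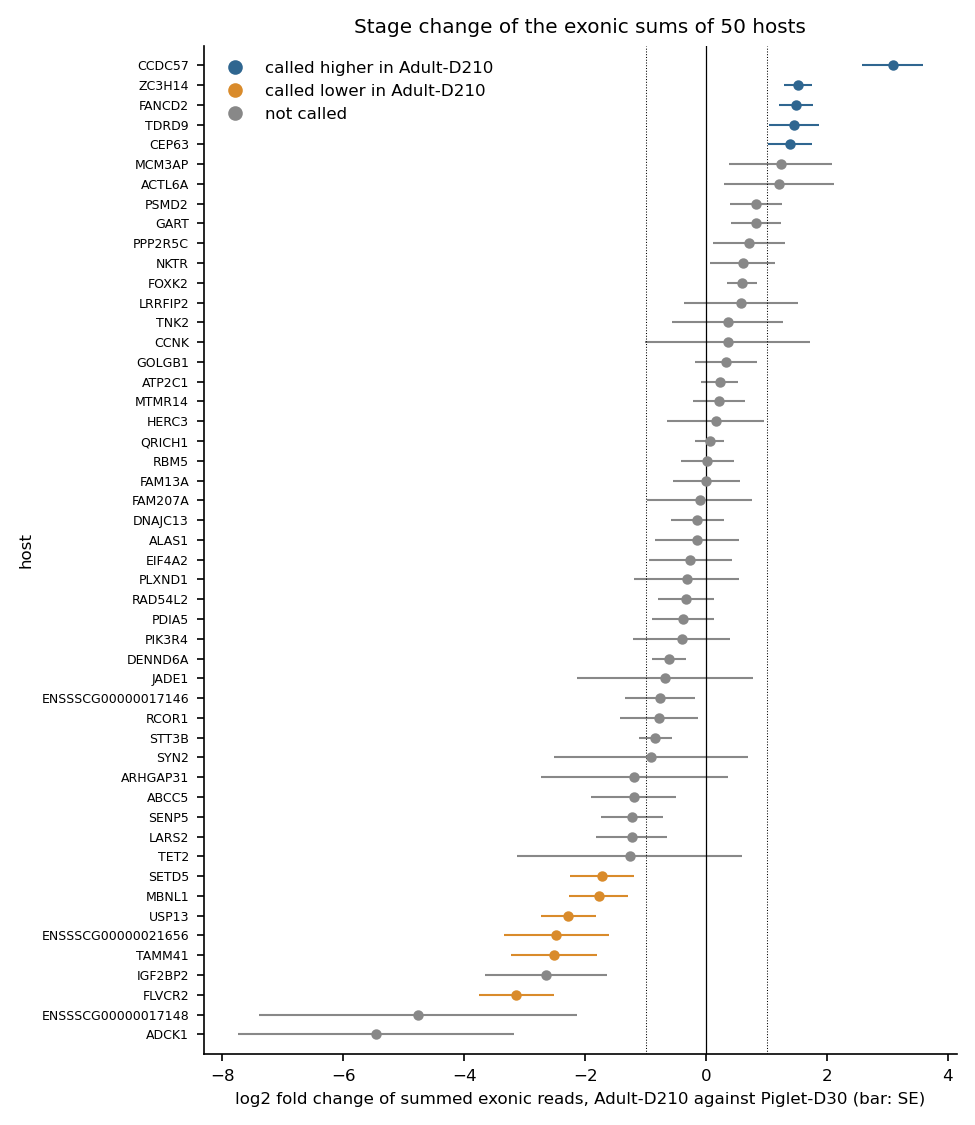
Log2 fold change of the summed exonic reads, Adult-D210 against Piglet-D30, for the 50 hosts with at least 10 exonic reads. Points are edgeR estimates, bars are SE, dotted lines mark a log2 fold change of 1 in either direction, and colours mark the 5 hosts called higher and the 6 called lower. ADCK1 and ENSSSCG00000017148 lie furthest to the left with wide errors and were not called.

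The sums of the other hosts with many exonic reads were not called. QRICH1, a nuclear factor of the cellular stress response, had 480, 293 and 246 exonic reads against 368, 166 and 187 (log2 fold change 0.06 ± 0.24 SE, with SRPBM of 56.1 ± 25.9 and 34.3 ± 13.6, SD, n = 3 each). FOXK2, a forkhead transcription factor, had 414, 149 and 224 against 346, 204 and 222 (0.60 ± 0.25 SE, adjusted p = 0.0904, with SRPBM of 43.7 ± 26.8 and 37.0 ± 8.78, SD). DENND6A, an exchange factor for a Rab GTPase of membrane traffic, had 316, 338 and 253 against 138, 145 and 120 (-0.61 ± 0.27 SE, adjusted p = 0.114, with SRPBM of 49.0 ± 9.07 and 19.7 ± 3.84, SD). Scaled to mapped reads, QRICH1 and FOXK2 thus had lower means in the adults, against fitted changes above 0, and overlapped between stages, whereas DENND6A did not overlap. The leading circRNA held 87.0% of the exonic reads in QRICH1, 71.3% in FOXK2 and 79.5% in DENND6A.

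STT3B, a catalytic subunit of the complex that attaches N-glycans to proteins, passed the p-value but not the fold limit with its sum (-0.84 ± 0.28 SE, adjusted p = 0.0318). Its SRPBM was 35.0 ± 17.5 and 11.3 ± 3.05 (SD, n = 3 each), without overlap. Its leading circRNA10694, of 2 exons at chr13:19726699-19731015, had 238, 117 and 159 reads in the piglets and 76, 36 and 43 in the adults. That circRNA was called (-1.41 ± 0.29 SE, adjusted p = 0.0066). circRNA10693, which starts at the same base and has 4 exons, had 44, 19 and 23 against 15, 14 and 15 reads and was not called (-0.57 ± 0.46 SE). The difference between both circRNAs was not tested.

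ATP2C1, the calcium and manganese pump of the Golgi, had the most exonic circRNAs (22), and its sum of 169, 68 and 86 against 136, 70 and 48 reads was not called (0.23 ± 0.31 SE). Its SRPBM was lower in the adults, at 17.9 ± 10.7 and 12.2 ± 5.97 (SD, n = 3 each), and overlapped. The sum of DNAJC13, an endosomal co-chaperone with 11 exonic circRNAs, was 48, 32 and 18 against 20, 24 and 14 reads (-0.14 ± 0.44 SE).

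Among single circRNAs, 111 of the 1341 tested in the whole table were called (8.28%). Of these hosts 129 circRNAs were tested, 128 exonic and 1 intronic, and 11 from 8 hosts were called (8.53%), 7 higher and 4 lower in the adult. Beside those given above, the called circRNAs were circRNA11295 of CEP63 (1.71 ± 0.48 SE), circRNA11438 of MBNL1 (-1.94 ± 0.48 SE) and circRNA11567 of USP13 (-3.15 ± 0.87 SE). The intronic ciRNA298 of EIF4A2 had a log2 fold change of -1.66 ± 1.60 (SE) and was not called. With 1 library left out in turn, circRNA1055 of ZC3H14 kept its call in every fit, circRNA1056 and circRNA12274 lost it in 1 of 6, and circRNA1005 of FLVCR2 and circRNA10694 of STT3B in 2. It was lost in 3 of 6 by circRNA11438, in 5 by circRNA11295 and circRNA11567, and in 6 by circRNA12275. DESeq2 did not call circRNA11567 (adjusted p = 0.0729). With mapped reads as library size, 1 was called higher and 5 lower. Without Piglet-D30 replicate 3 the calls among these hosts dropped to 2, without Adult-D210 replicate 1 to 4, without replicate 2 of that group to 5 and without its replicate 3 to 7.

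Whether the exonic and intronic reads of a host changed by the same amount between the stages was tested as an interaction of type and stage, with the library as a block. At least 10 exonic and 5 intronic reads were required, which 9 hosts met. None of the 9 was called with edgeR's quasi-likelihood test (0.0%), none had an unadjusted p under 0.05, and DESeq2 called none (0). The adjusted p values ranged from 0.65 to 0.74. The difference was defined as the exonic minus the intronic log2 stage change, and its SE ranged from 1.59 to 3.41. The intervals below therefore leave wide ranges of either direction, and the absence of calls does not show that both types changed alike. The 2 types also entered this test under unlike conditions. Every exonic circle summed here had been seen in Piglet-D30 replicate 1, while the intronic circles were not so limited. Whether this moved the differences and shares below was not tested.

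The intronic reads of MBNL1 were 1, 13 and 6 in the piglets and 0, 2 and 8 in the adults, and the stages overlapped, whereas its exonic reads did not. Its difference was -1.08 ± 1.96 (SE, 95% interval -5.06 to 2.90), and it turned to 0.14 without Adult-D210 replicate 3. EIF4A2 had 12, 4 and 0 intronic reads in the piglets and 1, 2 and 1 in the adults, beside 27, 12 and 2 against 7, 7 and 8 exonic reads. Its difference was 0.75 ± 2.25 (SE, 95% interval -3.80 to 5.31). In both hosts 1 piglet library held most of the intronic reads of its stage.

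PSMD2, a regulatory subunit of the proteasome, and FANCD2 had more intronic reads in the adult. PSMD2 had 1, 0 and 0 in the piglets and 4, 4 and 0 in the adults, in circles that shared their first base at chr13:131633539, beside exonic reads of 55, 13 and 15 against 45, 32 and 18. The difference was -2.22 ± 1.94 (SE, 95% interval -6.16 to 1.71) in PSMD2 and -0.59 ± 1.59 (SE, -3.81 to 2.64) in FANCD2. That of FANCD2 turned to 0.16 without Piglet-D30 replicate 1.

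MTMR14, a phosphoinositide phosphatase, HERC3, a HECT domain ubiquitin ligase, and RBM5, a splicing regulator, each had 5 intronic reads in the piglets and 0 in the adults. The reads of MTMR14 were 3, 2 and 0 and those of RBM5 2, 0 and 3 in the piglet libraries, while all 5 of HERC3 came from Piglet-D30 replicate 2. Their exonic reads were found at both stages, with 69, 20 and 27 against 22, 29 and 33 in MTMR14, 21, 2 and 3 against 12, 5 and 2 in HERC3, and 51, 32 and 14 against 34, 15 and 16 in RBM5. The fitted differences were 3.47 in MTMR14 (95% interval -0.997 to 7.94), 3.43 in HERC3 (-3.49 to 10.4) and 3.42 in RBM5 (-1.23 to 8.07). These estimates depend on the fit's treatment of counts of 0 and are no bounds.

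FOXK2 had 0, 4 and 0 intronic reads in the piglets and 1, 0 and 0 in the adults (difference 1.51 ± 2.76 SE). PDIA5, a protein disulfide isomerase, had 0, 1 and 1 against 3, 0 and 0 (-0.83 ± 2.38 SE), beside exonic reads of 28, 35 and 12 against 19, 11 and 9. As a share of each host's reads, the intronic reads differed between stages with an exact two-sided permutation p of 0.4 or more in all 9 hosts, where 0.1 is the smallest p that 3 libraries against 3 allow, and the adjusted p was 1 throughout. In EIF4A2 the share was 18.6% ± 16.4 (SD, n = 3) in the piglets and 15.3% ± 6.05 (SD, n = 3) in the adults.

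**Figure D4:**
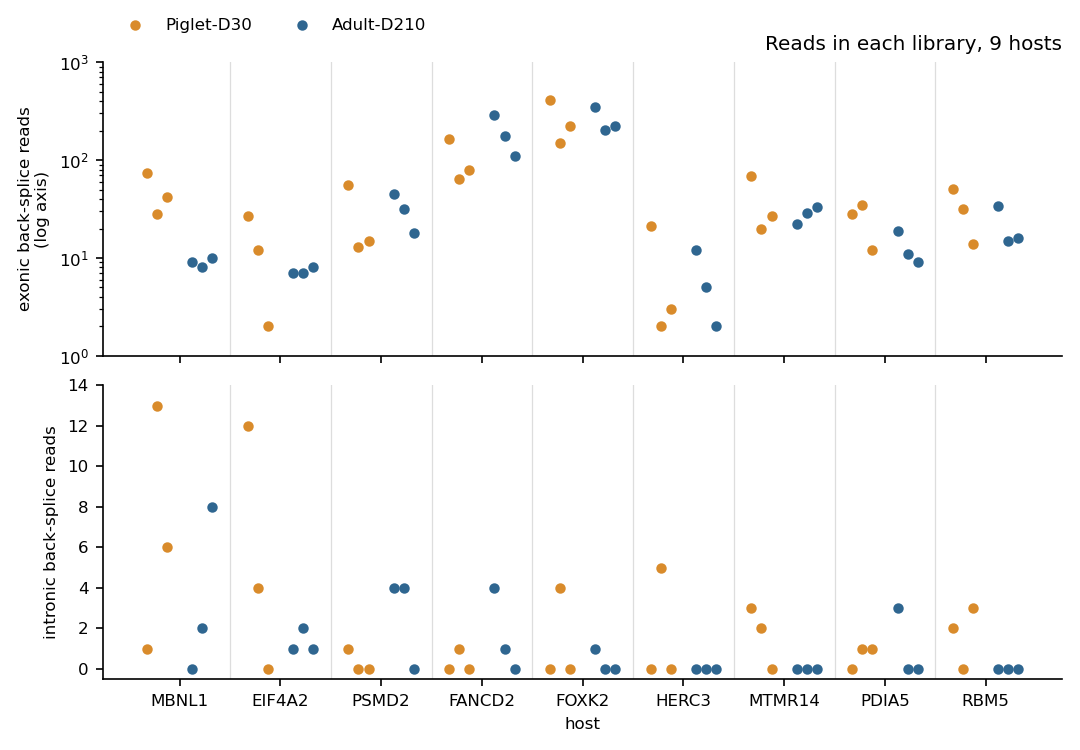
Exonic (top, log axis) and intronic (bottom, linear axis) back-splice reads in each library for the 9 hosts with at least 10 exonic and 5 intronic reads, ordered by intronic reads. Each point is 1 library, with replicates 1 to 3 from left to right within a stage. MBNL1 separates the stages in the top panel and overlaps in the bottom panel.

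**Figure D5:**
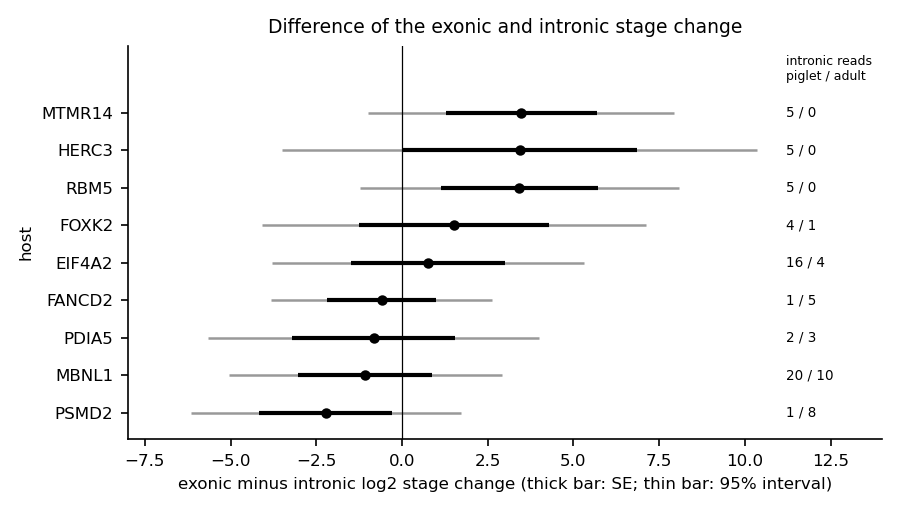
Exonic minus intronic log2 stage change for the 9 hosts, from the interaction fit. Thick bars are SE, thin bars are 95% intervals, and the intronic reads of both stages stand at the right. All 9 intervals include 0.

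The hosts called in the exonic test were also compared by their intronic reads. The 5 hosts with an exonic increase had 5 intronic reads in the piglets and 6 in the adults, 5 of the latter in FANCD2, and 3 of them had intronic reads in Piglet-D30 alone. The 6 hosts with an exonic decrease had 24 in the piglets and 11 in the adults, of which MBNL1 held 20 and 10. Intronic reads of 4 of the 6 were found in Piglet-D30 alone, and the single intronic read of SETD5 came from Adult-D210 replicate 2. Over all 61 hosts, 35 had intronic reads in Piglet-D30 alone. No link between the exonic and intronic directions is read from these counts.

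Genes of related function were read from lists, of which few members were hosts of both types. Of 36 genes of chromatin and histone modification, 16 were in the table and SETD5 had both types, and 1 of the 6 tested sums of the list was called higher and 1 lower, with a median log2 fold change of -0.86. Of 39 RNA processing genes, 15 were in the table and DHX30, NKTR and RBM5 had both types, and 0 of 4 tested sums were called (median 0.28). Of 26 cilium, centriole and flagellum genes, 9 were in the table, CEP63 had both types, and 3 of 7 tested sums were called, all higher in the adult (median 2.21). Of 17 DNA repair and meiosis genes, 7 were in the table, FANCD2 had both types, and 2 of 5 tested sums were called, both higher (median -0.09). Of 21 genes of ubiquitin and protein turnover, 9 were in the table, HERC3 and RNF123 had both types, and 0 of 4 tested sums were called (median -0.24). Over all 560 tested sums 17.3% were called, 6.43% higher and 10.9% lower, and the median was -0.31. The lists do not hold every host of their function, and USP13, MBNL1, ZC3H14 and CCDC57, all called above, are in none of them. With 4 to 7 sums tested per list, nothing particular to a list is read from these counts.

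Markers of testis cell types were sparse in a table of circRNAs and could not serve as a check of cell content. Of 21 germ cell markers 4 were in the table (IQCG, KIT, MOV10L1 and PIWIL1), with 74 reads in the piglets and 142 in the adults. GATA4 was the 1 of 8 Sertoli cell markers, with 8 and 0 reads. CYP17A1 and STAR were the 2 of 6 Leydig cell markers, with 22 and 42 reads. ACTA2 and CD163 were the 2 of 6 markers of other cells, with 2 and 0 reads. None of these 9 genes had both types. Their part in the values above was not tested.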

How the data were processed

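RNA from the testes of 3 Piglet-D30 and 3 Adult-D210 boars was sequenced after removal of ribosomal and linear RNA, and groups and replicates were taken from the labels. After trimming (Cutadapt) and mapping (TopHat2), the authors searched unmapped reads for back-splices with TopHat-Fusion and CIRCExplorer2. For every circRNA the deposited table gives a raw count in each library. The deposited SRPBM is a signal in which the authors scaled that count by mapped reads and read length. The deposited exon number and other annotation columns were used as given. The genome build Sscrofa10.2 comes from the submitters' processing notes. Dividing count by SRPBM gave the mapped reads (37364412 to 49179118), with a read length of 150 nt.

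Counts were summed per host and type. Stage changes were tested with edgeR 4.0.16 in R 4.3.3 (TMM on back-splice totals, robust quasi-likelihood F test, at least 10 reads, Benjamini-Hochberg adjustment over all 560 sums or 1341 circRNAs). The difference within a host was fitted over both types with library, type and the interaction of type and stage, without a dispersion trend and with edgeR's earlier quasi-likelihood method, since 9 hosts passed the filter. SE was the estimate over the root of the F statistic. DESeq2 1.42.0 and other scalings, filters and left-out libraries were tried. The code was tested on simulated data. Shares were compared with exact permutation tests in SciPy 1.17.1. No 2 replicates of a group agreed within counting noise (chi-square per degree of freedom 3.09 to 4.04). Reads were counted without molecular identifiers. The Wilson intervals of the shares cover counting error only. The intervals of the within-host differences come from the fit, which also estimates the spread between libraries.

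The members and lists were chosen with earlier results of these data known. Hosts are named that passed the filter of the within-host test or had a call, and the 5 with the most exonic reads, the 5 with the most intronic reads and the 5 with the most circRNAs. Others were named after their values were seen. Sequences were not used here.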

Additional observations from a re-analysis of the deposited data

How the results depend on the processing

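For the within-host difference, 0 hosts were called under each alternative, with 2 to 63 hosts tested and the lowest adjusted p from 0.279 to 0.870. The main fit called few of the simulated differences, so that these counts do not show stability. An unadjusted p under 0.05 was seen in 1 of 7 hosts without Piglet-D30 replicate 3 and in 0 under the other alternatives. With a library left out, 2 hosts changed sign: FANCD2, from -2.73 to 0.156, turned without Piglet-D30 replicate 1, and MBNL1, from -2.29 to 0.138, without Adult-D210 replicate 3. The count of called host sums (11) was 10 with DESeq2, DESeq2 size factors or no filter, all 10 among the 11. With mapped reads it was also 10, but 7 of these were among the 11, and 1 was higher and 9 lower. It was 7 to 12 with a library left out, the lowest without Adult-D210 replicate 2. The count of called single circRNAs (11) was 12 with DESeq2, 13 with DESeq2 size factors, 12 with no filter, 6 with mapped reads and 2 to 9 with a library left out. No value of a called sum or circRNA changed sign, while 21 of 121 refits of the called sums and 49 of 121 of the called circRNAs lost the call. The cause of these losses was not tested.

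Replicate numbers are shared between the stages but mark different boars, and the deviations of same-numbered libraries correlated at 0.0239, -0.0140 and -0.0392. With a replicate block 10 host sums, 5 single circRNAs and 0 within-host differences were called.

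The difference in the intronic share of reads, adult minus piglet, was -0.870 percentage points. It was -3.90 for the share of detected circRNAs, -0.920 with exonic circRNAs of at least 10 reads and -0.816 without the host with the most reads, and it ranged from -1.28 to -0.601 with a library left out. Of the 84 intronic circRNAs, 46 had 1 read. Depth and the spread between boars were not told apart as sources of the wide errors.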
